A study of Mus musculus with 2 samples.

Results

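The epithelial-mesenchymal transition (EMT) is the conversion by which cells bound to each other in an epithelial sheet lose their junctions and polarity and become motile mesenchymal cells, as at the primitive streak and in the neural crest. A small set of transcription factors drives it by repressing genes of cell junctions, Cdh1 above all, and a second set of regulators holds cells in the epithelial state. Several of these genes repress each other, so that Zeb1 and Grhl2, for example, are often found in opposite states in epithelial tissues and tumour lines. Here the levels of 10 such genes were examined in CH cells. They were 6 mesenchymal drivers (Snai1, Snai2, Twist1, Zeb1, Zeb2 and Prrx1) and 4 epithelial guardians (Grhl2, Ovol1, Esrp1 and Esrp2), taken by name. Every probe set whose platform annotation names 1 of these genes alone was included, which gave 28 probe sets, 19 for the drivers and 9 for the guardians, of 45037 on the array that are not controls. All 10 genes were found, of 18193 genes with a probe set of their own.

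CH cells are small cells that the study sorted by flow cytometry from the blood of healthy mice as viable, DNA-containing events negative for CD45 and lineage antigens. RNA of 2 pools was read on 1 Affymetrix mouse genome array each, and the labels describe each pool (PlCH_1 and PlCH_2, here array 1 and array 2) as blood cells of 15 adult C57bl/6 mice of both sexes at 7 months of age, with no treatment and no engineered allele named. The paper's general methods give younger mice and smaller pools. There was 1 group with 2 arrays, and no array of another cell type was analysed here, so levels could only be set against a limit and against the rest of the same arrays. Values are log2 signals of probe sets, each a group of short oligonucleotides against 1 stretch of transcript. A limit of 5 (log2) was taken from the study, which left out of its clustering the genes below that value in its whole joint dataset. Here it was applied to each of the 2 arrays, which is a different use. Affinity differs between probe sets, so a signal does not rank 1 transcript against another. Pooled RNA also does not tell a high level in few cells from a low level in many. Array 1 and array 2 had median signals of 5.54 and 5.52 and had a Pearson's r of 0.9967 over all probe sets, which do not count as independent. Of 76 genes of smell and taste receptors, taken as background, 13 (17.1%) also had a probe set above 5. Their probe sets had a 95th percentile of 6.04 and their highest gene, Vmn1r44, was at 6.92. Ptprc, which encodes the CD45 that the gate selects against, gave 4.95 and 5.24 on arrays 1 and 2 with its higher probe set (mean 5.10 ± 0.21, SD, n = 2 arrays, adjusted p = 0.36 from limma against 5), and its lower one had a mean of 3.58.

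With the highest probe set of each gene, 5 of 6 mesenchymal drivers had signals far above the limit, while no epithelial guardian reached 8 on either array. All 6 drivers (Snai1, Snai2, Twist1, Zeb1, Zeb2 and Prrx1) had at least 1 probe set above 5 on both arrays, as did 3 of 4 guardians (Grhl2, Esrp1 and Esrp2, not Ovol1), beside 71.2% of all genes. That share rises with the number of probe sets. It was 56.7% of genes with 1 (as Snai1, Twist1 and Esrp1) and 80.9% with 2 (as Snai2, Ovol1 and Esrp2). It was 93.7% with 4 (as Zeb1 and Grhl2) and 95.9% with 5 or with 6 (as Zeb2 and Prrx1). Above 8 on both arrays were 5 of the 6 drivers and 0 of the 4 guardians, beside 37.0% of all genes. The highest probe sets of the drivers had a median of 9.68 and those of the guardians a median of 6.24, with 6.84 over all genes. Counted by probe set, 15 of 19 for drivers and 6 of 9 (66.7%) for guardians were above 5 on both arrays, beside 57.2% of all probe sets. Of probe sets that name 1 gene alone, as the members do, 64.8% were, so the guardians were near that share. With limma, which sets the mean of both arrays against 5 and shares the spread over all probe sets, 15 driver and 5 guardian probe sets were above 5 at an adjusted p under 0.05, beside 54.8% of all probe sets. By the same test 3 driver and 3 guardian probe sets lay below 5, beside 36.4%, and 1 of each did not pass in either direction. Drivers and guardians were not tested against each other, because a difference between probe sets of different genes also carries their affinity.

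**Figure D1:**
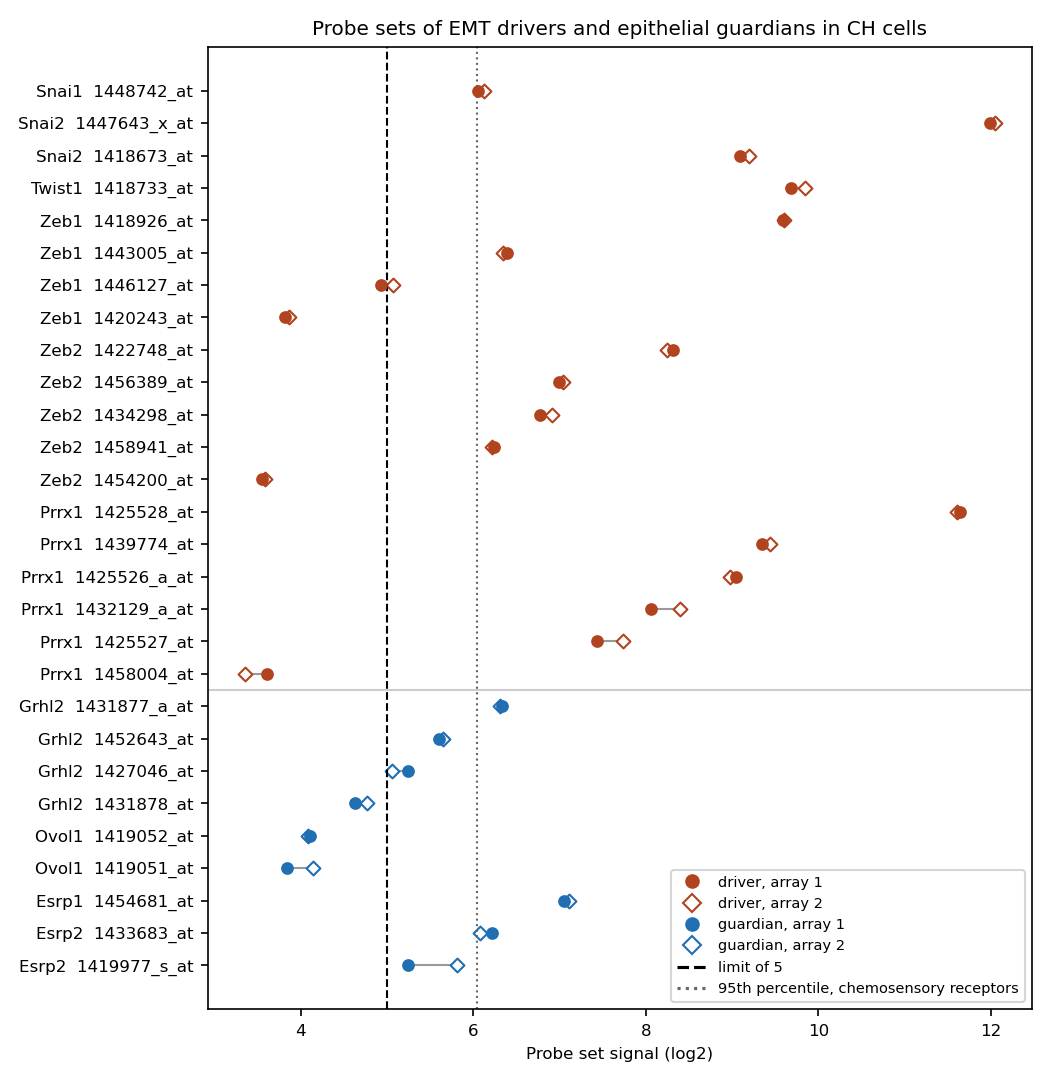
Log2 signal (horizontal axis) of each of the 28 probe sets (rows) in CH cells, with a filled circle for array 1 and an open diamond for array 2, drivers above the grey line and guardians below it. A dashed line stands at 5 and a dotted one at 6.04 (95th percentile of the receptor probe sets), and all points above 8 belong to drivers.

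Snai1 (Snail), a zinc finger repressor needed for the mesoderm to leave the primitive streak, was the lowest of the drivers. Its only probe set, 1448742_at, gave 6.05 on array 1 and 6.12 on array 2, a mean of 6.09 ± 0.056 (SD, n = 2 arrays) with a 95% confidence interval of 5.90 to 6.27 from limma. Both arrays were above 5 (adjusted p = 4.3e-05 from limma), but 4 chemosensory receptor genes were at or above the same level. Snai1 therefore passed the test against 5 at a level that background genes also reach. Snail and the ZEB factors read an E-box with the core CACCTG, or CAGGTG on the other strand. In human cell lines Snail is known to repress its own promoter through such a site, and the promoter window of Snai1 is shown for that site. It spans chr2:167537945-167538244 of GRCm38.p6 on the plus strand, from RefSeq, and covers 250 bases before the annotated start and 50 from it, with the E-box in capitals.
Snai1: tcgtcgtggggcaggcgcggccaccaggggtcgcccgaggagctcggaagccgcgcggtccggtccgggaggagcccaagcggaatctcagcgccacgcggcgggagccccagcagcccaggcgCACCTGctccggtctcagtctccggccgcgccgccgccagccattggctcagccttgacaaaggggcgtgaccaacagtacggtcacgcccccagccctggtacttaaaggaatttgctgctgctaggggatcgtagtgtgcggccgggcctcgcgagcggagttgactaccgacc
This window held 1 E-box, which begins at -126 from the start. Of the 4 drivers with windows in the table (Snai1, Twist1, Zeb2 and Prrx1), Snai1 alone held one. By window this was 1 of 7 (14.3%), beside 20.2% of all 32851 windows of the same length. A match of letters describes the window and shows no binding.

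Snai2 (Slug), the paralog of Snail that marks the migrating neural crest, was far above the limit with both probe sets. Probe set 1447643_x_at gave 11.99 on array 1 and 12.04 on array 2, and 1418673_at gave 9.09 and 9.20. The means were 12.02 ± 0.035 and 9.15 ± 0.078 (SD, n = 2 arrays), with adjusted p of 8.9e-08 and 2.3e-07 from limma. They thus differed by 2.87 on the log2 scale within 1 gene. The ending _x_at marks a probe set with some probes that also match other sequences, and without it Snai2 was at 9.15. No chemosensory receptor gene reached either level.

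Twist1, a basic helix-loop-helix factor of cranial mesoderm and neural crest, was read by a single probe set. That probe set, 1418733_at, gave 9.68 on array 1 and 9.84 on array 2, with a mean of 9.76 ± 0.12 (SD, n = 2 arrays) and an adjusted p of 1.8e-07 from limma. It lay at the 82.3rd percentile of all genes by their highest probe set. Of the 9183 genes with 1 probe set, 56.7% had it above 5 on both arrays.

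Zeb1 and Zeb2, repressors with a zinc finger cluster at either end and targets of the miR-200 microRNAs, had probe sets on both sides of the limit. For Zeb1, 1418926_at gave 9.59 and 9.60 on arrays 1 and 2, 1443005_at 6.39 and 6.34, 1446127_at 4.93 and 5.07, and 1420243_at 3.82 and 3.87. The first stood at 9.59 ± 0.010 (SD, n = 2 arrays, adjusted p = 1.5e-07 from limma), while 1446127_at was at the limit itself, with a 95% interval of 4.80 to 5.20 (adjusted p = 0.99). The highest and the lowest probe set of Zeb1 thus lay 5.75 apart, and the median over the 4 was 5.68. For Zeb2, which also acts in blood formation, 1422748_at gave 8.32 and 8.24. In total 4 of its 5 probe sets were above 5 on both arrays, beside 64.8% of all probe sets that name 1 gene alone. The others gave 6.99 and 7.04 (1456389_at), 6.77 and 6.91 (1434298_at), 6.24 and 6.22 (1458941_at), and 3.55 and 3.59 (1454200_at). Zeb2 stood at 8.28 ± 0.057 with its highest probe set (adjusted p = 4.6e-07 from limma) and at 6.84 with the median of its probe sets. All but the lowest lay above the 95th percentile of the receptor probe sets, and 2 lay above Vmn1r44.

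Prrx1, a homeobox factor of limb bud and craniofacial mesenchyme that also drives EMT in the embryo, was the driver with most probe sets. Probe set 1425528_at gave 11.64 on array 1 and 11.61 on array 2, with a mean of 11.62 ± 0.021 (SD, n = 2 arrays, adjusted p = 8.9e-08 from limma), at the 95.4th percentile of all genes. Next came 1439774_at with 9.35 and 9.44, 1425526_a_at with 9.05 and 8.97, 1432129_a_at with 8.06 and 8.40, and 1425527_at with 7.43 and 7.74. In total 5 of 6 were above 5 on both arrays, beside 64.8% of all probe sets that name 1 gene alone. Above 8 were 4 of the 6, beside 10980 of all 45037 probe sets. The remaining probe set, 1458004_at, gave 3.61 and 3.36 and lay below 5 (adjusted p = 2.6e-05 from limma). With 6 probe sets a gene passes easily, and 95.9% of the 244 genes with as many had at least 1 above 5. The median over the 6 was 8.62.

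Annotation with a curated transcript picked out 1 probe set for most drivers. For Snai1, Snai2, Twist1, Zeb1 and Zeb2, 1 probe set each names a RefSeq mRNA as its annotated sequence. These 5 were at 6.09, 9.15, 9.76, 9.59 and 8.28. All 5 were above 5 on both arrays and 4 were above 8. Of all 45037 probe sets, 57.2% were above 5 on both arrays and 10980 were above 8. Of those that name 1 gene alone, 64.8% were above 5. The 4 driver probe sets not above 5 on both arrays, 2 of Zeb1 and 1 each of Zeb2 and Prrx1, name no RefSeq mRNA, but neither do the highest probe sets of Snai2 and Prrx1. Which stretch of transcript each one reads, and whether the others also match a RefSeq mRNA, was not tested.

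Among the guardians, Esrp1 had the highest signal. Esrp1 and Esrp2 are RNA-binding proteins that impose epithelial splicing on transcripts such as Fgfr2, Cd44 and Ctnnd1. The only probe set of Esrp1, 1454681_at, gave 7.05 on array 1 and 7.11 on array 2, with a mean of 7.08 ± 0.040 (SD, n = 2 arrays, adjusted p = 2.8e-06 from limma) and an interval of 6.90 to 7.26. It was the only guardian above the highest chemosensory receptor gene, whose 6.92 lies inside that interval. Esrp1 lay at the 52.4th percentile of all genes, which is close to the middle. For Esrp2, 1433683_at gave 6.22 and 6.08 with a mean of 6.15 ± 0.094, and 1419977_s_at gave 5.25 and 5.81 with a mean of 5.53 ± 0.39. Both passed limma's test above 5 (adjusted p = 4.2e-05 and 0.015), and 4 and 7 chemosensory receptor genes were at or above these levels.

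Grhl2, a grainyhead factor that activates Cdh1 and claudin genes, was close to the limit with most of its probe sets. Probe set 1431877_a_at gave 6.33 on array 1 and 6.31 on array 2, 1452643_at 5.60 and 5.65, 1427046_at 5.25 and 5.06, and 1431878_at 4.63 and 4.77. The first was at 6.32 ± 0.014 (SD, n = 2 arrays, adjusted p = 1.7e-05 from limma), and 1427046_at, at 5.16 with an interval of 4.95 to 5.37, was above 5 on both arrays but did not pass limma (adjusted p = 0.12). The lowest, 1431878_at, lay below 5 (adjusted p = 0.012). Of 1093 genes with 4 probe sets, 93.7% had at least 1 above 5, and the median over those of Grhl2 was 5.39.

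Ovol1, a zinc finger repressor of skin and germ cells, was the only gene of the 10 with no probe set above 5. Probe set 1419052_at gave 4.11 and 4.09, and 1419051_at gave 3.84 and 4.14. Their means of 4.10 ± 0.015 and 3.99 ± 0.22 (SD, n = 2 arrays) lay below 5 with adjusted p of 8.4e-05 and 2.2e-04 from limma. Ovol1 stood at the 12.4th percentile of all genes, with 38 of the 76 chemosensory receptor genes at or above it.

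**Figure D2:**
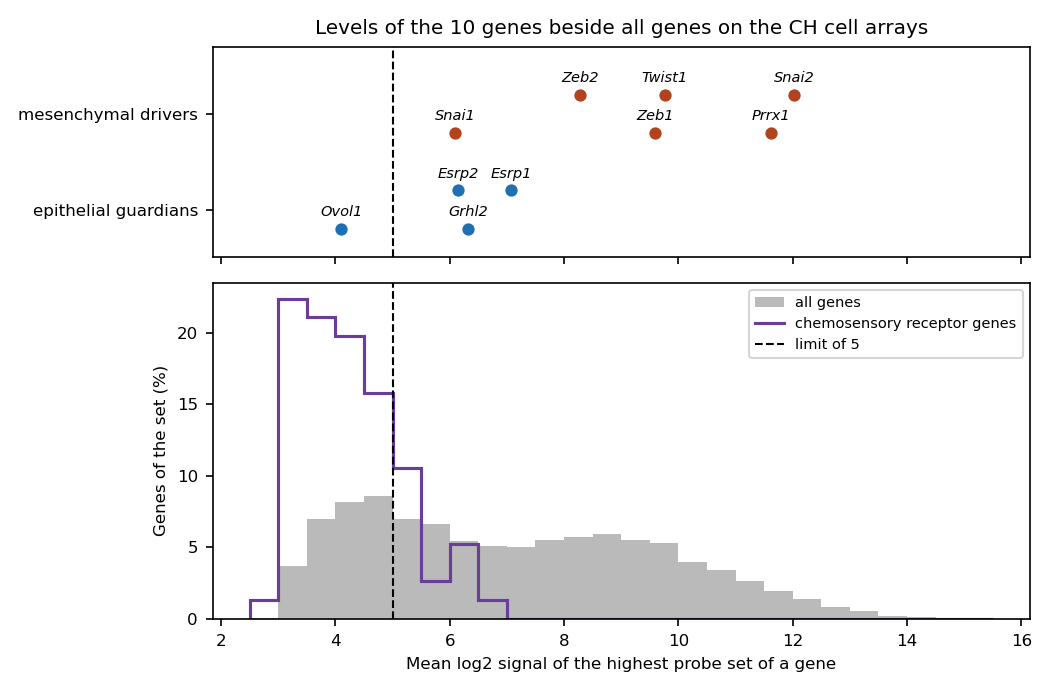
Upper panel, mean log2 signal of both CH cell arrays for the highest probe set of each of the 10 genes, with drivers above guardians and points offset for legibility. Lower panel, share of all genes (grey) and of 76 chemosensory receptor genes (purple line) per 0.5 of log2 signal, with the limit of 5 dashed. Ovol1 at 4.10 lies below the limit and Snai1 at 6.09 lies among the guardians.

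The arrays differed for these genes by amounts like those of all probe sets. The absolute log2 difference between array 1 and array 2 had a median of 0.079 over the driver probe sets and 0.13 over the guardian probe sets, beside 0.12 over all probe sets. Of the 28 probe sets, 25 lay between the 5th and the 95th percentile of all probe sets of like level. That band holds most probe sets by its construction, and the count is near the share it holds of all probe sets. The 3 outside were 1432129_a_at of Prrx1 (-0.35, array 1 minus array 2), 1419977_s_at of Esrp2 (-0.56) and 1419051_at of Ovol1 (-0.31), all lower on array 1. None of these was the highest probe set of its gene, and no driver or guardian gene changed its side of 5 between the arrays. The single probe set that did so was 1446127_at of Zeb1.

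**Figure D3:**
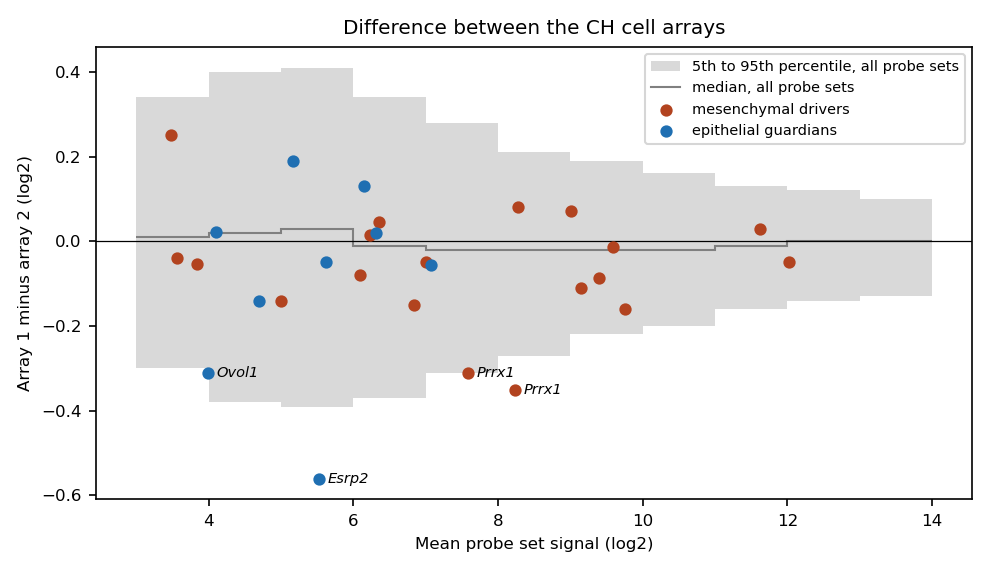
Difference between array 1 and array 2 (log2, vertical axis) against the mean log2 signal for the 28 probe sets, with the 5th to 95th percentile of all probe sets per 1 log2 of signal in grey. The probe set of Esrp2 at -0.56 lies farthest below the band.

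Other EMT factors were all above the limit, and other epithelial factors in 6 of 12 cases. Of 7 other EMT factors with a probe set, 7 were above 5 on both arrays and 3 above 8, beside 71.2% and 37.0% of all genes, with a median of 8.16. Hmga2, a chromatin architectural protein that induces Snai1 and Twist1, was at 12.82 ± 0.094 (SD, n = 2 arrays). Twist2, the paralog of Twist1, gave 9.36 on array 1 and 9.51 on array 2, and Prrx2, the paralog of Prrx1, gave 8.46 and 8.34. Foxc2 and Foxq1, forkhead factors, were at 8.16 ± 0.22 and 7.90 ± 0.049, and Gsc, a homeobox factor of the organizer, was at 6.61. Snai3, a further Snail paralog, was lowest at 5.94 ± 0.061. So the paralogs of Twist1 and Prrx1 were above 8 on both arrays, and that of the Snail genes lay within the range of the receptor genes.

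The 12 measured epithelial factors outside the guardians had a median of 5.11. Klf5, a factor of gut and bladder epithelium that pluripotent cells also express, was at 9.67 ± 0.024 (SD, n = 2 arrays) with 1 probe set, although its others reached down to 3.69. Tfap2c, a factor of trophectoderm and germ cells, gave 6.87 on array 1 and 7.57 on array 2. Elf3 was at 6.82 ± 0.24, Trp63, the p63 of stratified epithelia, at 6.04 ± 0.056, Foxa1 at 5.74 ± 0.26 and Spdef at 5.30 ± 0.22. The 3 paralogs of Grhl2 and Ovol1 on the list had means under 5. Ovol2 was at 4.92 ± 0.21 (adjusted p = 0.46 from limma), Grhl3 at 4.93 ± 0.24 (adjusted p = 0.54) and Grhl1 at 4.42 ± 0.0053 (adjusted p = 5.4e-04, below 5). Of the others, Tfap2a was at 4.81, Elf5 at 4.44 and Ehf at 4.38.

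Most genes through which the drivers act, or by which they are held in check, were above the limit. Twist factors pair with E proteins, and Id proteins take these partners away. Of these 7 genes 6 were above 5, with Tcf12 at 11.32 ± 0.023 (SD, n = 2 arrays), Tcf4 at 11.16 ± 0.11 and Id3 at 10.16 ± 0.058 highest, and Id2 at 9.34 and Id4 at 5.04 lowest. Id4 gave 5.13 on array 1 and 4.95 on array 2 and was the only one that did not pass (adjusted p = 0.63 from limma). Of the corepressors that Snail and ZEB factors recruit, 11 of 11 measured genes were above 5 and also above 8. Hdac2 was at 11.67, Ctbp1 at 11.59 and Kdm1a, which binds the SNAG end of Snail, at 10.97, and Ehmt2 at 9.67 and Sin3a at 9.09 were lowest. All 7 genes of protein turnover were above 5, from Gsk3b, the kinase that marks Snail for degradation, at 9.79, Siah1a at 9.58 and Fbxl14 at 9.32 down to Fbxo45 at 8.67 and Btrc at 7.18. Such genes serve many other proteins as well, and their medians of 9.85, 10.35 and 9.15 stand beside 6.84 over all genes, and their counts above 5 beside 71.2%. By probe set, 16 of 22, 24 of 25 and 16 of 19 were above 5 on both arrays, beside 64.8% of all probe sets that name 1 gene alone.

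All 10 genes on the list of splicing regulators and Esrp targets passed 5 on both arrays, beside 71.2% of all genes, and their median was 10.71. Cd44, whose variant exons the Esrp proteins include, was highest and gave 13.01 on array 2, with an SD of 0.0048 over both arrays, followed by Ptbp1, a repressor of exons, at 12.46 and Qk, which promotes mesenchymal splicing, at 12.00. The lowest were Rbm47, an epithelial RNA-binding protein, at 7.90 and Fgfr2 at 7.75 ± 0.23. These probe sets give the level of a gene and not which exons its transcripts contain.

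All 17 genes of signals that induce EMT passed 5 on both arrays, beside 71.2% of all genes, and their median was 9.10. Hif1a, the oxygen-sensitive factor, was at 12.14 ± 0.039 (SD, n = 2 arrays), Tgfbr2, a receptor of TGF-beta, at 11.66 and Axl, a receptor tyrosine kinase, at 11.54. The lowest probe sets of Hif1a, Tgfbr2 and Axl were at 4.63, 3.39 and 3.46. The ligand genes Tgfb1, at 6.18 ± 0.038, and Bmp7, at 5.96 ± 0.056, had the lowest signals of the list by their highest probe set.

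Genes of the mesenchymal state and of the epithelial state were found above the limit on the same arrays. Of 20 measured mesenchymal effectors, 19 were above 5 and 17 above 8, and of 22 epithelial effectors 19 were above 5 and 7 above 8, beside 71.2% and 37.0% of all genes. The epithelial count above 8 was thus near the share of all genes. By probe set, 36 of 44 mesenchymal and 30 of 36 epithelial ones were above 5 on both arrays, beside 64.8% of all probe sets that name 1 gene alone. The medians of the highest probe sets were 11.18 and 7.13. Among mesenchymal effectors, Col1a2 was at 14.27, S100a4, a calcium-binding protein of motile fibroblasts, at 14.14 and Vim, which encodes vimentin, with 14.03 and 13.97 on arrays 1 and 2, and Itga5 at 6.51 and Fap at 3.98 were lowest. Among epithelial effectors, the keratins Krt8 and Krt18 were at 11.87 ± 0.032 and 10.66 ± 0.014 and the desmosomal Dsp at 9.91, and Tjp3 at 4.52 and Mal2 at 3.20 were lowest. Cdh1 was named afterwards as the best known target of the drivers and gave 9.31 on array 1 and 9.36 on array 2, while Cdh2, its mesenchymal counterpart, gave 11.01 and 11.02. Also above 5 was Crb3, a polarity gene that ZEB1 and Snail repress in human and dog cell lines, with 7.56 and 7.46, and Epcam was at 9.10 ± 0.065. Expression of both kinds of gene in the same cells and a mixture of cells cannot be told apart in pooled RNA.

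The promoters of Crb3 and Epcam were named after their values were seen. They are shown because they hold several of the E-boxes that Snail and ZEB factors read. Both are on the plus strand of GRCm38.p6, at chr17:57061951-57062250 and chr17:87635729-87636028, from RefSeq, with the same span around the start as for Snai1 and with E-boxes in capitals.
Crb3: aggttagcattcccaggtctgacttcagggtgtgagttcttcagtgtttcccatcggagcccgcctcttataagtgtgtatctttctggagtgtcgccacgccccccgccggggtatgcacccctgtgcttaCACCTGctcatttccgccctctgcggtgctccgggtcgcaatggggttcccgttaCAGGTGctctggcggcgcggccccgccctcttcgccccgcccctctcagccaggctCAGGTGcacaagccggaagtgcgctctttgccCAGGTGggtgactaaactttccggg
Epcam: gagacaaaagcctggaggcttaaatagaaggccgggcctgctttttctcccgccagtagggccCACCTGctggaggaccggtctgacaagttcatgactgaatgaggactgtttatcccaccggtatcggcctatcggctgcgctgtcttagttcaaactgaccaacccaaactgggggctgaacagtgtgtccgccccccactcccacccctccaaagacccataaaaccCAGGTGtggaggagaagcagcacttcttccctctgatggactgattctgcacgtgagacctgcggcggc
The E-boxes of Crb3 begin at -118, -63, -7 and 25 bases from its start, and those of Epcam at -187 and -19. Windows with 4 or more make up 0.0548% of all windows, 18 in number, and 2 of the 18 are overlapping windows of Crb3. Of 15 epithelial effectors with a window in the table, 13 held at least 1 E-box (86.7%), as did 1 of 12 mesenchymal effectors, Sparc, and 22.6% of all 27025 genes. The epithelial effectors include genes known as targets of these factors, so this share is a description of the list. Tjp3, at 4.52, and Ocln, with 5.24 on array 1 and 4.76 on array 2, were the E-box genes among the 15 that were not above 5 on both arrays, and Spint1 at 6.72 and Jup at 7.30 were those with no E-box. No window of Cdh1 or of a guardian was in the table.

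**Figure D4:**
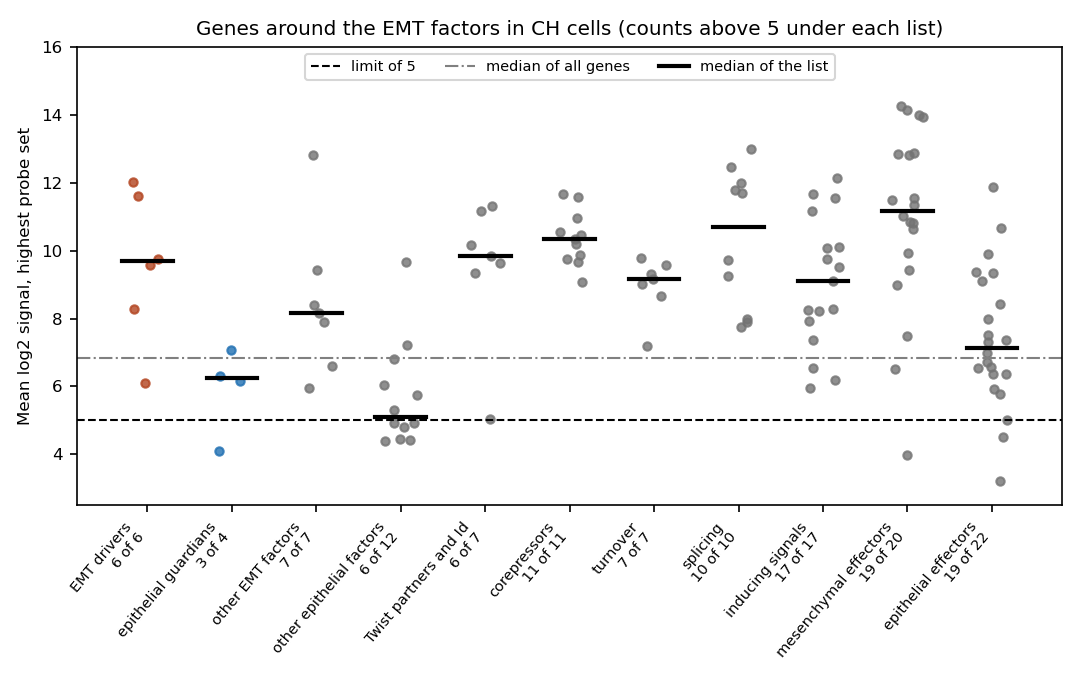
Mean log2 signal of the highest probe set of each gene (circles) for 11 lists around the EMT factors in CH cells, with a black bar at the median of the list and, under each name, the number of genes above 5 of those measured. The grey line marks the median of all genes, 6.84, and the dashed line the limit of 5. The medians are 9.68 for drivers, 6.24 for guardians, 11.18 for mesenchymal and 7.13 for epithelial effectors.

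Markers of other cells that blood can hold were read beside these levels, since leukocytes, endothelial cells and stromal cells express some of the drivers. The counts of markers above 5 stand beside 71.2% of all genes. Of 9 leukocyte markers, 6 were above 5, near that share, and 1 above 8, from Cd14 at 8.25, Csf1r at 7.42 and Cd3e at 6.61 down to Ms4a1 at 4.33 and Itgam at 3.85. Of 6 endothelial markers 2 were above 5, Kdr at 6.43 and Cdh5 at 5.13, with Pecam1 at 4.57 next and Emcn at 4.17 and Tie1 at 4.15 lowest. Of 4 erythroid markers 2 were, Epor at 7.14 and Klf1 at 5.90, with Alas2 at 4.91 and Hba-a1 at 4.22, and of 4 platelet markers all were, from Itga2b at 7.18, Ppbp at 6.99 and Gp9 at 6.41 to Pf4 at 5.98. All 8 stromal markers were above 5, from Col1a2 at 14.27, Col3a1 at 12.83 and Dcn at 11.99 to Lum at 7.93 and Thy1 at 7.47. All of them except Dcn and Lum are also on the list of mesenchymal effectors, so those signals are the same readings given above. Rplp0, Actb and Hprt, used in all cells, were at 14.47, 14.39 and 11.73, and Tbp at 8.44. The part of any other cell type in the levels of the drivers or guardians was not tested.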

How the data were processed

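RNA of CH cells from 2 pools was measured on Affymetrix mouse genome arrays. The values that the authors deposited are log2 signals, 1 per probe set and array, and their methods describe RMA with quantile normalisation in a joint run with public series. That these values come from that run, and tool versions, are not given in the sources used here. Depth does not apply to arrays, and their number limits the precision.

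Of 45101 probe sets, 64 controls were removed. The platform annotation gives 1 gene for 34945 of the rest, more than 1 for 932 and no entry for 9160. A gene was above the limit when 1 of its probe sets exceeded 5 on both arrays, and its highest probe set stood for it. Means were set against 5 with limma 3.58.1 in R 4.3.3, in a fit with an intercept alone, two-sided, with Benjamini-Hochberg adjustment over 45037 probe sets, after a test on simulated data. Python 3.11.15 with pandas 2.3.3 and numpy 2.4.6 was used.

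The members and lists were chosen with earlier results of these data known. Named were all members and all other EMT and epithelial factors with a probe set, the 3 highest and 2 lowest genes of each other list, and Ptprc. Further genes are named where said. The limits, the normalization, the arrays and the probe sets used were varied.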

Additional observations from a re-analysis of the deposited data

How the results depend on the processing

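No paired analysis was possible because both arrays belong to the same group. The count of drivers above the limit in use was 5 or 6 under every alternative run. It was 5 at a limit of 8, which Snai1 did not reach. An added alternative, chosen after seeing the data, kept only probe sets whose annotated sequence is a RefSeq mRNA. It also gave 5, since no probe set of Prrx1 is annotated so. All other alternatives gave 6. The count of guardians was 3 under all except a limit of 8. The RefSeq mRNA alternative could not be run for them, since no guardian probe set is annotated so. Without replicate 1 or replicate 2 the member probe sets above 5 numbered 22 and 21. At a limit of 8 the counts were 9 member probe sets, 0 guardians, 3 other EMT factors, 1 other epithelial factor, 7 epithelial effectors, 1 leukocyte, 0 erythroid, 0 platelet and 0 endothelial markers and 0 chemosensory receptors. At a limit of 6, and likewise at 6.04, the 95th percentile of receptor probe sets, they were 3 other epithelial factors, 3 leukocyte, 1 erythroid and 1 endothelial markers and 4 chemosensory receptors. With limma, or where the median probe set stood for a gene, 1 endothelial marker was above 5. Only the counts that moved most in proportion are listed for the limits, limma and the median. Smaller falls at 6 and 6.04 included 18 member probe sets, 17 epithelial effectors, 3 platelet markers and 16 genes of inducing signals. At 8 they included 7 genes of the splicing list and 12 of inducing signals. With the median probe set the genes of inducing signals above 5 fell to 14. A higher limit admits fewer genes by its construction, and 10980 of all 45037 probe sets were above 8. Quantile normalization moved no member level by more than 0.01. The arrays already had medians of 5.54 and 5.52, so that step could move little. No level of a member crossed 5 under any alternative. Some receptor genes also reached the levels of Snai1, Grhl2 and Esrp2. The interval of Esrp1, 6.90 to 7.26, held the level of the highest receptor gene, Vmn1r44, at 6.92. All levels rest on 2 arrays of 1 condition.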
